A study of Mus musculus with 9 samples.

Results

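Galanin and 9 other neuropeptides of the hypothalamus were examined as RNA in the mediobasal hypothalamus (MBH), a region that includes the arcuate nucleus and the median eminence at the base of the brain. The 10 genes were chosen by symbol from 35975 genes with a quantified transcript, and they were Gal, Tac1, Penk, Nts, Cck, Sst, Trh, Adcyap1, Nmu and Nmb. The tissue came from male wild-type C57Bl/6 mice at postnatal day 21, the age of weaning. Dams of the control group (CTRL, 4 libraries) drank water. Dams of the emulsifier group (Emul, 5 libraries) drank water with 1% carboxymethylcellulose (CMC) and 1% polysorbate 80 (P80) from before mating through gestation and lactation. According to the study's methods each library came from a different litter. The pups stayed with the treated dams until weaning, so exposure in the womb, through milk and from the dam's water cannot be told apart. The dissected block holds several hypothalamic nuclei, and in such bulk tissue fewer cells of a type and less RNA per cell cannot be told apart.

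Neuropeptides are cut from larger precursors in the secretory pathway, stored in dense-core granules and released to act on G protein-coupled receptors. Galanin is made in hypothalamic neurons that regulate feeding, fluid balance and pituitary secretion. Tac1 encodes the precursor of substance P and neurokinin A, Penk that of the enkephalins, Nts that of neurotensin and Cck that of cholecystokinin, a satiety peptide of gut and brain. Sst encodes somatostatin, which inhibits growth hormone release, and Trh the precursor of thyrotropin-releasing hormone, which drives the thyroid axis. Adcyap1 encodes the pituitary adenylate cyclase-activating peptide (PACAP), and Nmu and Nmb encode neuromedin U and neuromedin B.

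The main result for galanin depended on which of its transcripts was read. Gal lies on chromosome 19 of mm10 (3409915 to 3414544, minus strand), and 2 transcripts of it were quantified, both annotated as protein coding with 6 exons. Gal-202 (788 bases) starts 97 bases upstream of Gal-201 (672 bases). Their last exons begin 2 bases apart, at 3410165 in Gal-202 and at 3410163 in Gal-201. The 2 bases shift the reading frame, so that the annotated coding sequence has 124 codons in Gal-202 and 141 codons in Gal-201. The junction of the last 2 exons is shown for both because it is the difference in coding sequence between them. It runs 5′ to 3′ over 14 bases on each side, read from the GENCODE M21 transcripts, and the capitals mark the bases found only in Gal-202.

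Gal-202: cttgcaccttaaagAGgccggggccctcga
Gal-201: cttgcaccttaaaggccggggccctcga

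The stretches before the RefSeq start sites of 4 members are shown for the gene whose transcripts start at different positions (Gal), for the pair that varied most between libraries (Cck and Trh) and for the member with the highest level (Sst). Each is 250 bases long, reads 5′ to 3′ towards the start site and comes from RefSeq promoters on the build GRCm38.p6. All 4 genes lie on the minus strand. Capitals mark the letters TGACG on either strand, the short form of the cAMP response element, or the whole element TGACGTCA, which contains the short form on both strands. The positions were chr19:3414545-3414794 for Gal, chr9:121495695-121495944 for Cck, chr6:92244651-92244900 for Trh and chr16:23890845-23891094 for Sst.

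Gal: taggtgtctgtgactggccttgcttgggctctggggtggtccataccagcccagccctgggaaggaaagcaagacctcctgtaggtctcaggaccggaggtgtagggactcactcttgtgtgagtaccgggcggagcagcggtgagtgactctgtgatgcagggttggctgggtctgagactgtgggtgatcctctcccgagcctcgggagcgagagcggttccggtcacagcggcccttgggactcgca
Cck: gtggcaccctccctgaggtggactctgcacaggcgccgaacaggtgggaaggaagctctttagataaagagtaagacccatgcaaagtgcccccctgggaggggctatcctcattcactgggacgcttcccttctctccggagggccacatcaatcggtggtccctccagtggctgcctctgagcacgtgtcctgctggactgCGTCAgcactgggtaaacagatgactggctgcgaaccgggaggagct
Trh: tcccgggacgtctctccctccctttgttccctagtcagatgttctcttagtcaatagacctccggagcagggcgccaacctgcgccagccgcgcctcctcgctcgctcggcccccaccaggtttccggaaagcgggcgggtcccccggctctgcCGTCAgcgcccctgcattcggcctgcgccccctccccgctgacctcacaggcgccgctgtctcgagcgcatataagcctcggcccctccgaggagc
Sst: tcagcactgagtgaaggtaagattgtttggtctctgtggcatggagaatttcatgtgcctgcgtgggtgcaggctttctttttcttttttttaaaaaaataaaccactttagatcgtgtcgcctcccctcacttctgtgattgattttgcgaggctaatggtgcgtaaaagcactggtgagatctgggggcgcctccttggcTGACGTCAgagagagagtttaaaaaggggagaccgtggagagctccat

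Promoters were found for 9 of the 10 genes, with 2 entries for Adcyap1, and none was found for Penk. The whole element was present in 1 of the 10 entries, that of Sst, where it began 48 bases before the RefSeq start site, against 1.55% of all 32851 promoters. The GENCODE gene of Sst, used for the counts, reaches upstream to position 23890958. The Sst window thus overlaps that gene, and the element lies inside it. The short form was present for 7 of the 9 genes against 17.8% of all promoters, and the genes without it were Gal and Nmb. The entries of Adcyap1 overlap and hold the same copy of it. The letters TATAAA, searched on both strands as well, were present in 1 entry, the second of Adcyap1, against 12.4% of all promoters. In Gal, 1 short form lay in the 97 bases of the Gal-202 first exon that precede the start of Gal-201, with its first base at position 20 of that transcript. These matches describe the letters in these windows only.

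The libraries held between 28245360 (CTRL 3) and 46067534 (Emul 4) estimated counts. Hypothalamic markers were present in all of them: the summed level of 12 genes of the hypothalamus and arcuate nucleus was 287 to 311 CPM (counts scaled to library size) in CTRL and 278 to 375 CPM in Emul, and of these genes only Kiss1 was at or near 0. Markers of neighbouring tissue differed between libraries. The summed level of 6 thalamus genes was 131 to 156 CPM in CTRL and 121 to 283 CPM in Emul, and it was highest in Emul 3, Emul 1 and Emul 2. That of 7 genes of cortex and hippocampus was 11.0 to 15.8 CPM in CTRL and 11.9 to 25.7 CPM in Emul, with the same 3 libraries highest. A two-sided exact permutation test of these sums over the 126 splits into 4 and 5 libraries gave p = 0.21 and p = 0.24. Of the pituitary genes in a further list, Gh and Prl had 0 to 2 counts in every library.

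Levels were compared between genes in TPM, a level scaled by transcript length and library size. In CTRL, Sst was the most abundant member (351 ± 59.7 TPM, SD, n = 4), and its lowest CTRL library stood above the highest library of any other member. Tac1 (142 ± 9.42 TPM), Penk (141 ± 13.3 TPM) and Adcyap1 (129 ± 10.8 TPM) followed, and their ranges over the CTRL libraries overlapped. Trh (90.2 ± 27.8 TPM) overlapped Adcyap1 above it and Gal (65.0 ± 4.57 TPM) below it. The ranges of Gal and Cck (50.1 ± 10.3 TPM) did not overlap in CTRL, whereas Cck overlapped Nts (32.5 ± 3.41 TPM). Nmb (13.6 ± 1.59 TPM) and Nmu (1.20 ± 0.199 TPM) were lowest and separate from each other and from Nts. Of the Adcyap1 TPM over all libraries, the main coding transcript held 27.4% and a retained intron 35.4%. Short transcripts of 318 and 327 bases held 28.9% and 7.35% of it, but 2.82% and 0.778% of the counts. The place of Adcyap1 in either group thus rests on all of these, and not on the main coding transcript alone.

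In Emul the order differed in the middle of the list. Sst remained first (321 ± 20.7 TPM, SD, n = 5), followed by Adcyap1 (147 ± 23.5 TPM), Tac1 (133 ± 9.33 TPM), Penk (122 ± 17.7 TPM), Cck (71.2 ± 19.6 TPM), Trh (64.6 ± 27.0 TPM) and Gal (56.5 ± 6.76 TPM). From Adcyap1 down to Gal, the range of each gene over the Emul libraries overlapped that of the next. Nts (32.5 ± 2.89 TPM), Nmb (12.2 ± 0.944 TPM) and Nmu (1.28 ± 0.483 TPM) kept their places at the end.

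**Figure D1:**
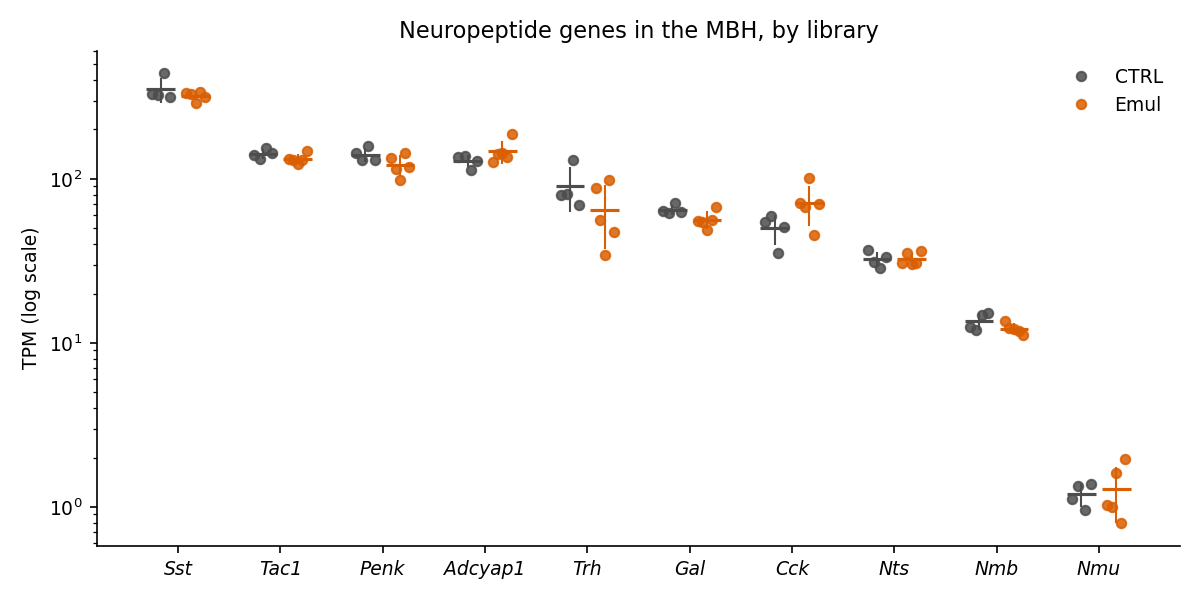
Level of each neuropeptide gene in TPM (log axis), summed over its transcripts, in 4 CTRL and 5 Emul libraries; points are libraries, horizontal bars group means and vertical bars 1 SD. Sst lies highest and Nmu lowest, and the points of Trh and Cck spread most among the genes above 2 TPM.

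The question of the comparison was whether the RNA of these peptides differed in the offspring of emulsifier-treated dams. With all transcripts of a gene summed, 9 members passed the filter on low counts, and 0 of the 9 passed a cutoff of a fold change over 1.5 (0.58 on the log2 scale) together with an unadjusted p under 0.05 in limma-voom. The study's methods name this fold with a p-value, and elsewhere the study names a false discovery rate. The cutoff used here was passed by 0.469% of the 15340 genes tested. At an adjusted p under 0.05, limma-voom called 0 of the 9 members and 0.117% of all genes. At an unadjusted p under 0.05 alone, 1 member (Cck, higher in Emul) was called, against 15.8% of all genes. By the cutoff, DESeq2 called 1 member (Cck, DESeq2 adjusted p = 0.19) and edgeR's quasi-likelihood test 0. The share of all genes called was not computed for DESeq2 or edgeR. The median log2 fold change of the 9 members was -0.01, and that of all genes tested was 0.00. In 0 of the 9 did the groups fail to overlap, against 6.6% of all genes.

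Galanin RNA, with both transcripts summed, was at 4.34, 4.29, 4.45 and 4.37 log2 CPM in CTRL 1 to 4. It was at 4.22, 4.29, 4.05, 4.24 and 4.53 log2 CPM in Emul 1 to 5. Emul 1, Emul 3 and Emul 4 lay below every CTRL value, while Emul 5 was the highest of all libraries, so the groups overlapped. The log2 fold change was -0.09 (95% interval -0.26 to 0.08; SE 0.077; limma, adjusted p = 0.60), an interval that does not reach the fold of the cutoff. It was -0.15 without Emul 5 (limma, unadjusted p = 0.029) and -0.04 without Emul 3.

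The authors' log2 CPM table gave other values for galanin. There Gal was at 1.96, 0.73, 0.46 and 0.95 log2 CPM in CTRL 1 to 4. In Emul 1 to 5 it was at 1.06, -0.21, 0.05, -0.42 and 0.36 log2 CPM. CTRL 1 was the highest library, Emul 1 lay above 3 of the CTRL libraries, and the other 4 Emul libraries lay below all of CTRL. The log2 fold change was -0.86 (95% interval -1.63 to -0.08; SE 0.355), with an unadjusted p of 0.034 and an adjusted p of 0.33 in limma. By the cutoff Gal was the 1 member of the 9 in the table that was called, against 0.685% of the 14592 table rows. All CTRL values of Gal lay above 0 log2 CPM, which is 1 CPM, and those of Emul 2 and Emul 4 lay below it. A filter of a CPM above 1 in 4 libraries was thus met by the CTRL libraries alone, and not by the Emul libraries alone. The call is therefore not read as support for a difference. The exact permutation test of the table values gave p = 0.079. Without CTRL 1 the log2 fold change in the table was -0.54 and no longer passed the cutoff in limma (adjusted p = 0.53), and the call was also lost without CTRL 4, Emul 2, Emul 3 or Emul 4.

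The table value of Gal lay below the sum of its transcripts in every library, by 2.37 (CTRL 1) to 4.66 (Emul 4) on the log2 scale. In CTRL the difference, table minus sum, averaged -3.34 ± 0.687 (SD, n = 4), and in Emul it averaged -4.10 ± 0.589 (SD, n = 5; exact permutation test, p = 0.11). For Tac1, Penk, Nts, Sst, Trh and Nmb, the table lay 0.11 above the sum on average. Cck lay 0.02 above its sum, and Adcyap1 lay 0.77 below its sum (range -0.88 to -0.68).

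Transcript by transcript, Gal-202 carried 92.5% of the galanin counts over all libraries and Gal-201 7.47%. The estimated counts of Gal-202 were 634, 741, 588 and 812 in CTRL 1 to 4, and 659, 781, 591, 826 and 790 in Emul 1 to 5. The estimated counts of Gal-201 were 137, 62.0, 33.7 and 75.7 in CTRL 1 to 4, and 73.7, 31.0, 33.9, 29.3 and 41.5 in Emul 1 to 5. The larger transcript thus covered the same range in both groups, and the smaller one was low in 4 of the 5 Emul libraries and high in CTRL 1. Gal-202 had a log2 fold change of -0.01 (95% interval -0.25 to 0.22; limma, adjusted p = 0.98). Gal-201 had one of -0.97 (95% interval -1.87 to -0.06; SE 0.404) with an unadjusted p of 0.039 and an adjusted p of 0.44 in limma, and was called by the cutoff. That call was lost without CTRL 1 (-0.64), CTRL 4, Emul 2, Emul 3, Emul 4 or Emul 5, and edgeR did not make it. The CPM of Gal-201 was 1.18 to 3.58 in CTRL, and 0.75, 0.90 and 0.65 in Emul 2, Emul 3 and Emul 4. The filter of a CPM above 1 in 4 libraries was thus met by the CTRL libraries alone, and the Emul libraries alone did not meet it.

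As a share of the galanin counts, Gal-201 made up 17.8%, 7.73%, 5.42% and 8.52% in CTRL 1 to 4. In Emul 1 to 5 its share was 10.1%, 3.82%, 5.43%, 3.43% and 4.99%. The ranges of the groups overlapped, and the difference of the mean shares was within the spread of the libraries (9.87% ± 5.45 against 5.54% ± 2.65, SD; exact permutation test, p = 0.13). The transcripts share most of their sequence, and the division of their shared reads is kallisto's estimate, for which no error was used here.

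The table value of Gal was matched by Gal-201 alone. It lay 0.09 to 0.13 above the log2 CPM of Gal-201 in every library. When only transcripts with Ensembl numbers below 195750 were kept, the limit at which sums came closest to the table over all genes, and counts were scaled by length (lengthScaledTPM), the table value of Gal differed from the result by -0.0019 to -0.0016 in every library. Across 13986 table rows, 97.1% met the table within 0.1 in every library under this setting, against 2.74% with all transcripts. Gal-201 has a number below this limit and Gal-202 one above it. Among 13894 genes tested that have a table row, 5.37% had over 50% of their counts on transcripts above the limit, and 0.461% had a share at or above that of Gal (92.5%). How the authors summarised transcripts to genes is not given in the sources used here.

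**Figure D2:**
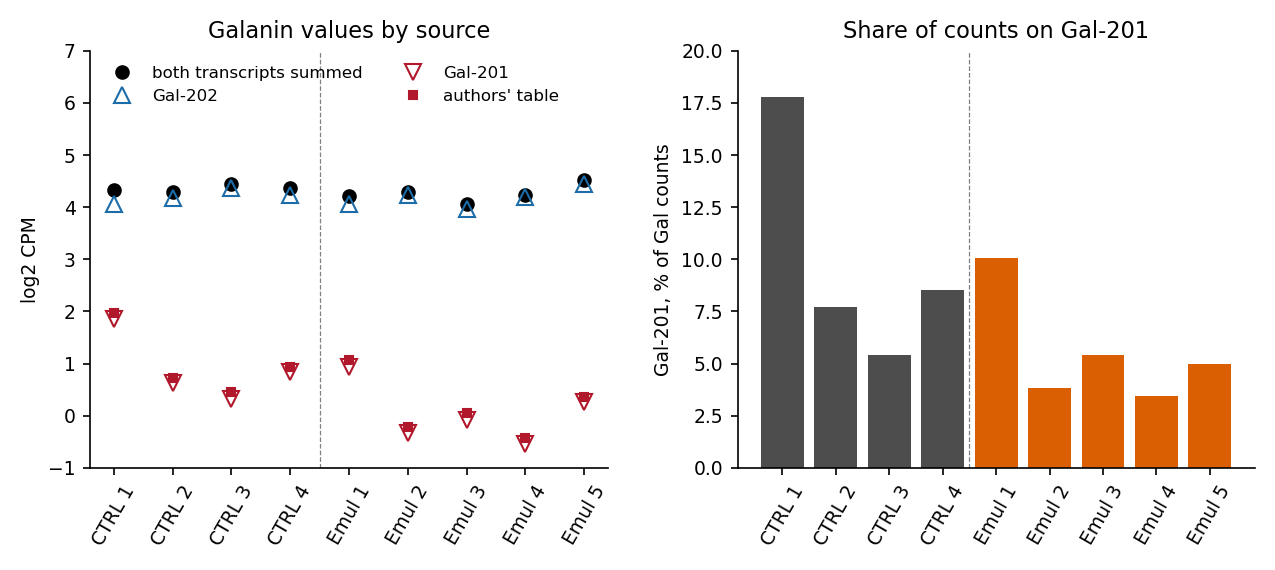
Left, log2 CPM of Gal in each of 9 libraries for the sum of both transcripts, for each transcript alone and in the authors' table; right, Gal-201 as a percentage of the Gal counts of each library. The table values follow Gal-201, highest in CTRL 1 (17.8% of counts) and lowest in Emul 4 (3.43%), while Gal-202 and the sum stay between 3.97 and 4.53 log2 CPM.

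**Figure D3:**
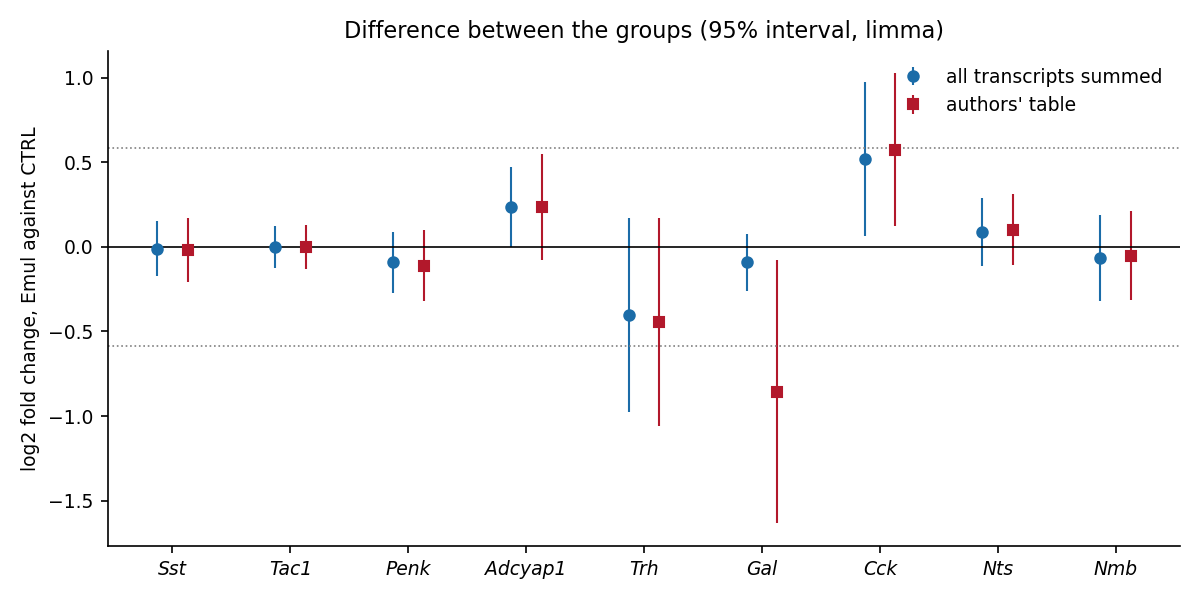
Log2 fold change of Emul against CTRL for the 9 members tested, from the sum of all transcripts (circles) and from the authors' table (squares), with 95% intervals from limma; dotted lines mark a fold change of 1.5 in each direction. The sources lie side by side for 8 members and apart for Gal (-0.09 and -0.86).

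Cholecystokinin had the largest difference of the 9 members in the sums. Cck (chromosome 9, 121489824 to 121495694, minus strand) was at 3.92, 4.02, 3.17 and 3.84 log2 CPM in CTRL 1 to 4. It was at 4.35, 4.34, 4.82, 3.71 and 4.36 log2 CPM in Emul 1 to 5. All Emul libraries but Emul 4 lay above all of CTRL. CTRL 3, the library with the fewest counts in total, had the lowest value and Emul 3 the highest. The log2 fold change was 0.52 (95% interval 0.06 to 0.98; SE 0.210; limma, unadjusted p = 0.029, adjusted p = 0.26), below the fold of the cutoff, and the exact permutation test gave p = 0.063. In the table it was 0.58 (limma, adjusted p = 0.28), also just short of the cutoff. There it passed the cutoff without CTRL 1 (0.63), CTRL 2 (0.66), CTRL 4 (0.61) or Emul 4 (0.73), and was 0.40 without CTRL 3. The value ranged from 0.37 without CTRL 3 to 0.69 without Emul 4 in the sums, and it passed the cutoff without CTRL 2 (0.61) and without Emul 4. Of the counts of Cck, 93.5% lay on the transcript Cck-201, with a log2 fold change of 0.53 (limma, adjusted p = 0.46).

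Thalamus markers stood high in some of the libraries in which Cck was high. Their summed level was 132, 156, 132 and 131 CPM in CTRL 1 to 4. It was 196, 171, 283, 134 and 121 CPM in Emul 1 to 5. Emul 3 was thus highest in both, and Emul 1 and Emul 2 were high in both, whereas Emul 5 had a high Cck value and the lowest thalamus sum. Of the 6 thalamus genes, 5 were higher in Emul, 0 passed the cutoff, and their median log2 fold change was 0.39 (Tcf7l2 0.66, Prkcd 0.61). None of the 6 was without counts in any library. The part of such tissue in the Cck values was not tested.

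Thyrotropin-releasing hormone varied most of all members. Trh (chromosome 6, 92242061 to 92244650, minus strand) was at 5.68, 5.66, 6.33 and 5.48 log2 CPM in CTRL 1 to 4. It was at 5.89, 5.31, 4.52, 6.00 and 4.99 log2 CPM in Emul 1 to 5. Emul 2, Emul 3 and Emul 5 lay below all of CTRL, and Emul 1 and Emul 4 within its range. The lowest and highest libraries differed 3.49-fold. The SD of Trh over the 9 libraries was 0.54 on the log2 scale, above that of 98.8% of the genes tested. Its log2 fold change of -0.40 (95% interval -0.97 to 0.17; SE 0.263; limma, adjusted p = 0.48) was within this spread. Without Emul 4 it was -0.57 in the sums, and -0.61 in the table, where it then passed the cutoff (limma, adjusted p = 0.33). Without Emul 3 it was -0.20 in the sums.

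The summed level of 6 markers of GABAergic neurons put the libraries in the same order as Trh, apart from Emul 1 and Emul 4, which exchanged places. The sum was 880, 877, 988 and 751 CPM in CTRL 1 to 4. It was 899, 708, 589, 892 and 651 CPM in Emul 1 to 5. The lowest sum was in Emul 3 and the highest in CTRL 3, as for Trh. Of the 6 genes, 0 passed the cutoff and 4 were lower in Emul, among them Gad1 (log2 fold change -0.24), Gad2 (-0.23) and Slc32a1 (-0.27), which make or load the transmitter GABA. Gad1, Gad2 and Slc32a1 made up most of the sum. Their means in CTRL were 7.20 to 8.69 log2 CPM, against 2.48 to 3.10 for Lhx6, Npas1 and Pvalb. Lhx6 (2.35 log2 CPM) and Pvalb (2.19 log2 CPM) were lowest in CTRL 3, where the sum was highest. The log2 fold changes of Lhx6 and Pvalb were 0.02 and 0.12. Many hypothalamic neurons are GABAergic, so this list does not stand for other tissue alone. The exact permutation test of the GABAergic sums gave p = 0.17. Summed levels of 4 genes of the paraventricular nucleus were 155, 169, 321 and 134 CPM in CTRL 1 to 4. In Emul 1 to 5 they were 207, 166, 104, 241 and 144 CPM (exact permutation test, p = 0.68). CTRL 3, Emul 4 and Emul 1 were highest in that order and Emul 3 lowest, as for Trh, while the other libraries came in another order. The part of either list in the Trh values was not tested.

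**Figure D4:**
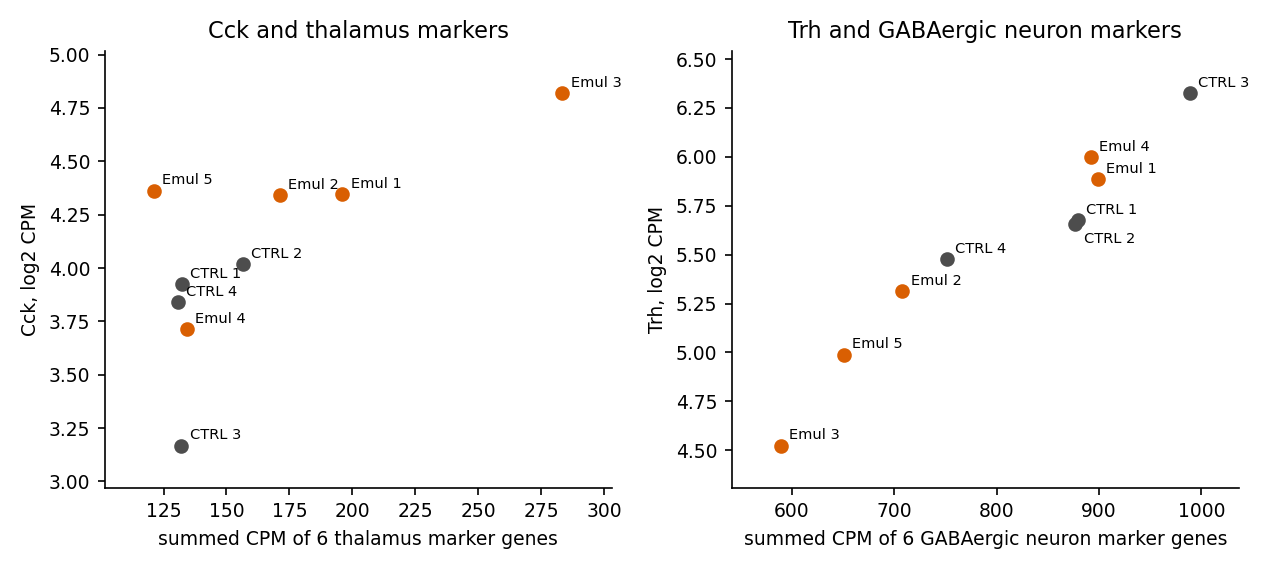
Log2 CPM of Cck against the summed CPM of 6 thalamus marker genes (left) and of Trh against that of 6 GABAergic neuron marker genes (right), one point per library (grey CTRL, orange Emul). Emul 3 has the highest Cck and thalamus values and the lowest Trh and GABAergic values, and Emul 5 combines a high Cck with the lowest thalamus sum (121 CPM).

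PACAP had the next largest positive difference. Adcyap1 (chromosome 17, 93199017 to 93206537, plus strand) was at 6.87, 6.79, 6.53 and 6.89 log2 CPM in CTRL 1 to 4. It was at 6.76, 7.13, 6.94, 6.88 and 7.36 log2 CPM in Emul 1 to 5. Emul 2, Emul 3 and Emul 5 lay above all of CTRL, and CTRL 3 was lowest. A log2 fold change of 0.23 was found (95% interval -0.00 to 0.47; SE 0.108; limma, unadjusted p = 0.051, adjusted p = 0.32). It was 0.15 without Emul 5 and 0.30 without Emul 1 (limma, unadjusted p = 0.015). Its counts were divided mainly between the coding transcript ENSMUST00000064775.7 (54.6%) and a transcript annotated as a retained intron, ENSMUST00000234204.1 (40.3%, between 37.0% and 43.8% in single libraries). Their log2 fold changes were 0.22 and 0.22, and the share of the retained intron differed between the groups by less than the spread of the libraries (40.8% ± 2.22 against 40.3% ± 2.50, SD; exact permutation test, p = 0.71). A short coding transcript, ENSMUST00000234663.1, had a log2 fold change of 0.39 (limma, unadjusted p = 0.040, adjusted p = 0.44), below the fold of the cutoff. Of the Adcyap1 counts, 45.4% lay on transcripts above the number limit described for galanin.

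The other members differed little. Somatostatin (Sst, chromosome 16, 23889573 to 23890958) was at 6.60, 6.54, 6.91 and 6.54 log2 CPM in CTRL and at 6.69, 6.72, 6.46, 6.68 and 6.60 log2 CPM in Emul, in replicate order. CTRL 3 stood above all other libraries and Emul 3 below them. The log2 fold change was -0.01 (95% interval -0.17 to 0.15; limma, adjusted p = 0.96), and 0.07 without CTRL 3. Tac1 (chromosome 6, 7554879 to 7565834) lay between 5.74 and 6.01 log2 CPM in all 9 libraries, the narrowest range of the 10, with a log2 fold change of -0.00 (95% interval -0.13 to 0.12; limma, adjusted p = 1.00).

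Penk (chromosome 4, 4133531 to 4138819) lay between 5.80 (Emul 3) and 6.32 (CTRL 3) log2 CPM. Its log2 fold change was -0.09 (95% interval -0.27 to 0.09; limma, adjusted p = 0.63). Nts (chromosome 10, 102481756 to 102490486) lay between 3.96 (CTRL 3) and 4.47 (Emul 2) log2 CPM, with a log2 fold change of 0.09 (95% interval -0.11 to 0.29; limma, adjusted p = 0.68). Nmb (chromosome 7, 80902227 to 80905076) had 98 to 173 estimated counts per library and a log2 fold change of -0.06 (95% interval -0.32 to 0.19; limma, adjusted p = 0.83). For these 5 genes the 95% intervals stayed within the fold of the cutoff in both directions. Nmu (chromosome 5, 76333495 to 76363788) had 9 to 26 estimated counts per library, did not pass the filter and has no row in the table. On the log2 CPM scale Emul minus CTRL was 0.12 for Nmu, and the groups overlapped (two-sided exact permutation test, p = 0.66).

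Single transcripts were tested for 16 of the 28 annotated transcripts of the 10 genes, and 1 (Gal-201) passed the cutoff, against 2.61% of the 40432 transcripts tested. Gal-201 met the filter through the CTRL libraries, where it was high, so this count is not read as a result. At an adjusted p under 0.05 limma-voom called 0 of the 40432, and 10.8% had an unadjusted p under 0.05. Nts, Sst, Trh and Nmu each had 1 quantified transcript. Tac1 was divided between ENSMUST00000185187.7 (64.2%) and ENSMUST00000184986.1 (31.7%), with log2 fold changes of -0.04 and -0.01. The transcript ENSMUST00000090679.8 held 3.8% and was listed at 0 counts in CTRL 4, at 27.7 to 96.9 counts in the other CTRL libraries and at 61.9 to 141 counts in Emul. Its difference did not pass the cutoff (limma, unadjusted p = 0.064, adjusted p = 0.49). Penk was divided between Penk-201 (78.6%) and Penk-202 (21.4%), with log2 fold changes of -0.06 and -0.14. Nmb was divided between Nmb-201 (65.1%), the retained intron Nmb-203 (20.8%) and Nmb-202 (11.3%), of which only Nmb-201 had counts enough for the test (log2 fold change -0.35; limma, adjusted p = 0.58).

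Some members varied together from library to library. Of the 36 pairs of members, 6 had an adjusted p under 0.05 for Pearson's r in a permutation test over the 9 libraries. The test used log2 CPM with the group means removed. Values centred within groups are not freely exchangeable between groups, so these p-values are approximate and may be too small. The share of such pairs among all genes tested was not computed, so the count of 6 has no background beside it. The strongest pair was Penk with Trh (r = 0.94, permutation p = 0.00059, adjusted 0.017, and Spearman's rho 0.92, permutation p = 0.0013, adjusted 0.024). Gal varied with Tac1 (r = 0.87, permutation p = 0.00096, adjusted 0.017, and rho 0.92, permutation p = 0.0013, adjusted 0.024). Nts varied with Adcyap1 (r = 0.82, permutation p = 0.0073, adjusted 0.044, and rho 0.75, permutation p = 0.025, adjusted 0.11).

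Cck ran against 3 others. With Trh, r was -0.84 (permutation p = 0.0034, adjusted 0.031, and rho -0.80, permutation p = 0.014, adjusted 0.10). With Penk, r was -0.84 (permutation p = 0.0033, adjusted 0.031, and rho -0.83, permutation p = 0.0083, adjusted 0.074). With Sst, r was -0.81 (permutation p = 0.0064, adjusted 0.044, and rho -0.85, permutation p = 0.0061, adjusted 0.073). Without the 2 libraries farthest from the median of the first gene of the pair, the signs stayed. The values were then 0.87 for Penk with Trh, 0.75 for Gal with Tac1, 0.92 for Nts with Adcyap1, -0.69 for Cck with Trh, -0.66 for Penk with Cck and -0.81 for Cck with Sst. The libraries also differ in depth and in their marker sums, whose part in these values was not tested.

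**Figure D5:**
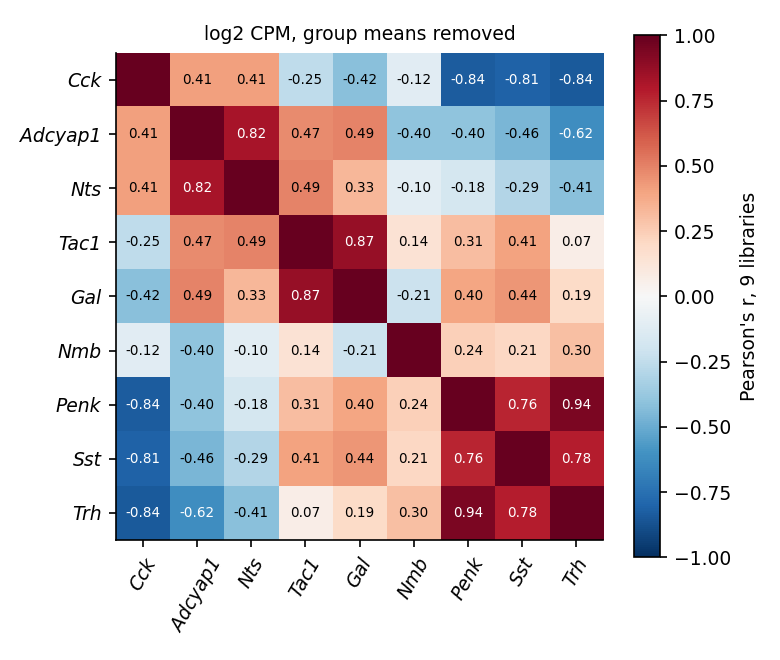
Pearson's r between the log2 CPM of 9 members over 9 libraries after the group means were removed. Cck is negative with Penk, Sst and Trh (-0.81 to -0.84), which are positive with one another (0.76 to 0.94), and Gal pairs with Tac1 (0.87).

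The genes most like each member on the same measure, out of all genes tested, are given as a description over the 9 libraries. Those nearest to Trh included Slc32a1 (r = 0.97), the vesicular GABA transporter, and Gad1 (r = 0.97), beside Slc25a34 (r = 0.97). Those nearest to Cck were Dlgap1 (r = 0.99), Tanc1 (r = 0.98) and Pcsk2 (r = 0.97), the last a protease that cuts peptide precursors. Those nearest to Tac1 were H2afy (r = 0.95), Pcdhgc4 (r = 0.95) and Nr5a1 (r = 0.95), the last a transcription factor of the ventromedial nucleus. For Sst they were C1ql2 (r = 0.97), Zfp428 (r = 0.95) and Avp (r = 0.94), the vasopressin gene. For Gal they were Wdr82 (r = 0.96), Cdc42se2 (r = 0.95) and Nrxn2 (r = 0.95). For Penk they were Kdm8 (r = 0.98), Mrpl38 (r = 0.97) and Imp3 (r = 0.96). For Nts they were Serf1 (r = 0.97), Cox6a1 (r = 0.97) and Atp5c1 (r = 0.95). For Adcyap1 they were Brf2 (r = 0.99), Klhl41 (r = 0.98) and Hif1a (r = 0.98). For Nmb they were Baalc (r = 0.96), A430005L14Rik (r = 0.94) and Flvcr2 (r = 0.94).

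Of the receptors for these peptides, 25 of 27 passed the filter (Tacr2 and Nmur1 did not) and 0 passed the cutoff. Their median log2 fold change was -0.02, and 2 had an unadjusted p under 0.05, both lower in Emul, against 15.8% of all genes in either direction. The delta opioid receptor Oprd1, which binds enkephalins, was at 3.20, 3.34, 3.23 and 3.25 log2 CPM in CTRL and at 3.05, 3.13, 2.98, 3.03 and 3.12 log2 CPM in Emul. The neurotensin receptor Ntsr2 was at 7.56, 7.60, 7.61 and 7.73 log2 CPM in CTRL and at 7.53, 7.51, 7.50, 7.47 and 7.51 log2 CPM in Emul. For both genes every Emul library lay below every CTRL library, and the exact permutation test gave p = 0.0079, the smallest it can give. Groups without overlap were found in 6.6% of all genes tested, so 2 of 25 receptors is near the background. Both changes on the log2 scale were small, -0.20 for Oprd1 (SE 0.062; limma, adjusted p = 0.18) and -0.12 for Ntsr2 (SE 0.035; limma, adjusted p = 0.16).

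For each peptide, the receptor with the highest level in TPM was examined. Galr1 (4.98 TPM over all libraries) had a log2 fold change of -0.11 (limma, adjusted p = 0.54), Galr2 0.04 and Galr3 -0.28 (adjusted p = 0.38). Ntsr2 (212 TPM) and the PACAP receptor Adcyap1r1 (151 TPM; log2 fold change -0.03) were the most abundant. The others were much lower in level and within 0.10 of no change on the log2 scale. These were Sstr1 (20.2 TPM, log2 fold change 0.01), the mu opioid receptor Oprm1 (11.2 TPM, -0.01), Tacr3 (9.02 TPM, -0.08), Cckbr (8.49 TPM, -0.10), Trhr (8.29 TPM, 0.09), Nmbr (3.14 TPM, 0.02) and Nmur2 (1.63 TPM, -0.00). The substance P receptor Tacr1, lower in level than Tacr3, was at 6.85 TPM with a log2 fold change of 0.06 (limma, adjusted p = 0.68).

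Of 39 other neuropeptide genes, 28 passed the filter, 2 fell by the cutoff (0.222% of all genes did) and 0 rose, with a median log2 fold change of 0.06. The 2 were Hcrt, the precursor of the orexins (log2 fold change -0.70; limma, adjusted p = 0.19), and Vip, vasoactive intestinal peptide (log2 fold change -1.50; limma, adjusted p = 0.24). Their groups overlapped, and leaving out Emul 3 or Emul 5 ended both calls. Leaving out CTRL 1 or Emul 2 ended 1 of them. At an unadjusted p under 0.05 alone, Pmch (-0.32) was lower and Grp (0.30) and Bdnf (0.31) were higher, all below the fold of the cutoff. With Hcrt and Vip these were 5 of 28, near the 15.8% of all genes. Bdnf, which the list includes, encodes a neurotrophin rather than a neuropeptide. Of 14 genes for precursor processing and granules, all passed the filter and 0 passed the cutoff. The log2 fold change was above 0 in 12 of the 14, with a median of 0.05, while it was below 0 in 7552 of the 15340 genes tested. At an unadjusted p under 0.05 alone, against 15.8% of all genes, 3 were higher in Emul, namely the carboxypeptidase Cpe (0.15; limma, adjusted p = 0.17), the protease Pcsk2 (0.10; adjusted p = 0.25) and its chaperone Scg5 (0.11; adjusted p = 0.20).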

How the data were processed

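Total RNA of the MBH from 4 CTRL and 5 Emul male mice at P21 was made into strand-specific mRNA libraries and sequenced by the authors. The submitters' processing notes name FastQC 0.11.9, kallisto 0.46.1, edgeR 3.40.1 and mm10. Per library, the authors deposited kallisto output with estimated counts and TPM for 119414 transcripts. A second file deposited by the authors gives log2 CPM in 14593 rows. In 1 row the gene name is missing (at most 0.0439% of the CPM), and it was not used. No further columns of samples were left out (0).

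Transcripts were matched by identifier to genes of GENCODE M21 (97.8% matched, and unmatched transcripts held 1.20% to 1.27% of counts). Estimated counts were summed per gene and scaled by TMM, and rounded only for edgeR 4.0.16 and DESeq2 1.42.0. Features reaching a CPM above 1 in 4 or more libraries were compared by limma-voom (limma 3.58.1, R 4.3.3) without covariates, as no batch is given in the labels. The authors' log2 CPM table was compared by limma with a trend, with no pseudocount. Adjusted p-values are from Benjamini-Hochberg over all features of each fit. Log2 CPM of single libraries was made with a prior count of 2. Single values were compared by two-sided exact permutation tests, whose smallest p with 4 against 5 is 0.0079. The fits were tested on simulated data. Depth limits the values of Nmu (9 to 26 counts per library) and Nmb (98 to 173) most.

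The members, lists, tests and naming rule were chosen with earlier results of these data known. Named were all 10 members, receptor, peptide and processing genes of the lists with an unadjusted p under 0.05, the highest receptor of each member, its 3 most similar genes, and transcripts with at least 5% of a member's counts or past the cutoff. Prkcd, Tcf7l2, Gad1, Gad2, Slc32a1, Galr2, Galr3, Gh, Prl, Kiss1, ENSMUST00000090679.8 and ENSMUST00000234663.1 were named after their values were seen. The same holds for Lhx6, Npas1, Pvalb and Tacr1. Alternatives were other tools, scalings, filters, gene summaries, transcript sets and call rules, the replicate number as a block, and each library left out in turn.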

Additional observations from a re-analysis of the deposited data

Results flagged for a closer look

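Within each group, values that stood far from the rest were sought by the gap to the nearest library as a share of the group's range (Dixon's ratio at its 95% critical value). Chance flags about 1 in 20 groups, and 3 values were found in 60 groups of values, the number chance gives. Sst in CTRL 3 was at 6.91 log2 CPM in the sums, against 6.54 to 6.60 in the other CTRL libraries, and at 7.07 log2 CPM in the authors' table, against 6.63 to 6.70. The transcript ENSMUST00000185187.7 held 66.7% of the Tac1 counts in Emul 2, against 62.0% to 62.7% in the other Emul libraries.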

How the results depend on the processing

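With all transcripts summed, the number of members past the cutoff was 0. It was 1 with DESeq2 (Cck), with transcripts below the number limit whether summed or as lengthScaledTPM (Gal, log2 fold change -0.93 and -0.92), and at an unadjusted p alone (Cck). Below the limit Gal rests on Gal-201, and the CTRL libraries alone met the filter, as in the table. The number of members past the cutoff was 0 to 1 with a library left out. In the authors' table the number, 1 as reported, was 0 for rows with a mean log2 CPM above 1 (where Gal is left out), 0 at an adjusted p under 0.05, 2 at an unadjusted p alone, and 0 to 2 with a library left out. For single transcripts it was 0 with edgeR, 3 at an unadjusted p alone and 0 to 2 with a library left out. Receptors numbered 2 and processing genes 3 at an unadjusted p alone, and 0 with each library left out. Other neuropeptide genes, 2 as reported, numbered 1 with edgeR and with DESeq2, 4 without a filter, 0 at an adjusted p under 0.05, 5 at an unadjusted p alone, and 0 to 2 with a library left out. With the replicate block they numbered 0. The numbers did not pair the libraries (r of same-numbered libraries -0.16 to 0.02), and the block changed no count of members.

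The mean table value of Gal minus its transcript sum was -0.0026 with summed and -0.0018 with lengthScaledTPM counts of transcripts below the limit, and -3.93 to -3.65 with a library left out. The number of members without overlap between groups was 0 to 1 with a library left out, and the 1 was Cck without Emul 4. The share of all genes without overlap was not computed with a library left out, so this count has no background beside it. Directions turned only where the difference was near 0. In the sums, Tac1 was at 5.6e-05 with edgeR, 0.0016 with DESeq2, 0.00079 with median-of-ratios size factors, 0.0022 without mitochondrial genes, 0.00072 with a CPM above 5, 0.00047 with lengthScaledTPM, 0.0015 with lengthScaledTPM below the limit, and -0.044 to 0.030 with a library left out. With a library left out, Tac1 in the table ranged from -0.043 to 0.028, Sst from -0.048 to 0.072 in the sums and -0.059 to 0.085 in the table, Nmb from -0.12 to 0.025 in the sums and -0.11 to 0.013 in the table, and Gal-202 from -0.074 to 0.040. A pseudocount was foreseen as a choice for the table, but there was none to vary.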
